A study of Homo sapiens with 6 samples.

Results

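The results concern 10 genes of the neuronal cytoskeleton and of axon growth: NEFL, NEFM, NEFH, INA, PRPH, STMN2, TUBB3, MAPT, MAP1B and GAP43. They were chosen by symbol, with no threshold on a value, and all 10 were found among the 60709 genes that carry counts. The study sequenced messenger RNA of the established human neuroblastoma line SH-SY5Y after exposure to a fumarate joined to an NRF2 peptide. The labels describe 3 control samples and 3 peptide samples, all lysed 5 h after the additions. Each control well held cells at 80% confluence in 2 mL of medium with serum and received 10 uL of DMSO. Cells were of 1 line, and the labels name no agent that would have driven them to differentiate. The labels do not say whether the replicates were separate cultures grown at different times.

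The count columns numbered 4, 5 and 6 carry the numbers of the control samples and are called control replicates 1, 2 and 3. The other 3 columns match the number of no sample and were not used, so the peptide samples were not analysed here and no treatment effect is given. If the columns had been numbered independently of the labels, the libraries described below could be those of treated cells. The libraries held 8887854 to 11397407 counts.

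An axon is held up by microtubules and by intermediate filaments. Neurofilaments are copolymers of a light, a medium and a heavy subunit (NEFL, NEFM and NEFH), joined by alpha-internexin (INA) in central neurons and by peripherin (PRPH) in neurons with peripheral axons. Microtubules are polymers of alpha- and beta-tubulin. MAP1B and tau (MAPT) bind and stabilise them, and stathmins such as STMN2 bind tubulin dimers and favour disassembly. GAP43 is a membrane-attached phosphoprotein of growth cones, the moving tips of growing axons. SH-SY5Y cells derive from the sympathetic lineage and extend short neurites.

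The label was checked against markers of cell types. The minimum was 10 counts in every library, which 13920 of all 60709 genes reached. Of 8 markers of noradrenergic neuroblasts, 7 reached 10 counts in every library, and their summed level was 2790 to 3148 CPM (counts per 1000000 of the scaled library total). The exception was TH, which had 0 counts in each library, a result that allows up to 0.263 to 0.339 CPM. HAND2, a transcription factor of sympathetic precursors, had 914 ± 44.3 CPM (SD, n = 3). The antisense gene HAND2-AS1 covers 24.1% of its exonic bases and had 3594, 3980 and 3140 counts. Whether the counting used strand is not stated, so the level of HAND2 is uncertain. Of 7 markers of the mesenchymal neuroblastoma state, 5 reached the minimum, and the sum was 217 to 252 CPM, of which the fibronectin gene FN1 gave 184 ± 14.6 CPM. Of 6 glial and Schwann cell markers, 3 reached the minimum, with a sum of 6.48 to 8.69 CPM and SOX10 at 0 counts. Of 4 markers of blood and endothelium, 0 reached it, with a sum of 0.678 to 1.49 CPM and HBB at 0 counts. Of 8 markers of mature central neurons, 5 reached it, with a sum of 38.5 to 44.5 CPM and GAD2 at 0 counts.

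All 10 genes had at least 10 counts in every control library, as did 13920 of all 60709 genes. Together they took 0.219%, 0.216% and 0.213% of the counts in replicates 1, 2 and 3. Their summed level was 2191, 2151 and 2137 CPM, a mean of 2160 ± 28.01 CPM (SD, n = 3). MAP1B alone gave 44.4 to 46.8% of these counts. The median level over the 10 genes was 117 ± 8.87 CPM, beside a median of 31.3 CPM over the 13920 genes that reached 10 counts in every library. The mean CPM of 8 members lay above that median, where 50.0% of genes lie by construction. TUBB3 and PRPH lay below it. Per kilobase of the longest annotated transcript, the median over 13863 of these genes with a known length was 8.37 CPM. TUBB3, with 9.19, then lay above the median, while MAPT, with 5.90, and PRPH, with 1.40, lay below it.

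**Figure D1:**
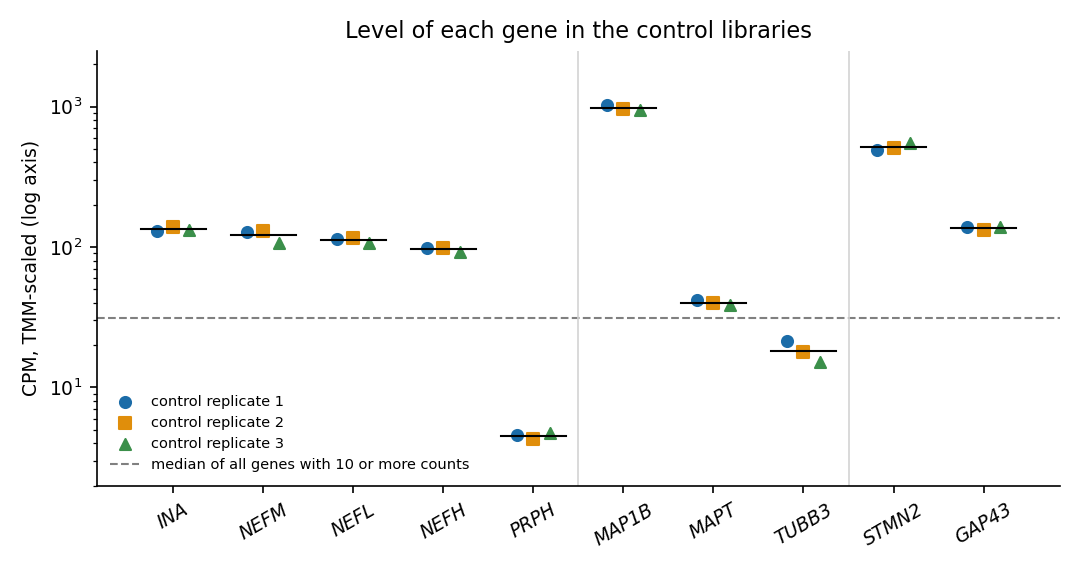
CPM (log axis) of each gene in control replicates 1, 2 and 3, with a line at the mean, and filaments, microtubule genes and growth genes set apart by grey lines. MAP1B and STMN2 lie highest at 981 and 517 CPM, and PRPH lies at 4.54 CPM, under the dashed median of 31.3 CPM.

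The 3 subunits of the neurofilament triplet had 92.6 to 130 CPM in every library. NEFL (ENSG00000277586.4; chromosome 8, 24950955 to 24957110, minus strand; all positions are GRCh38 from GENCODE 29) encodes the light subunit, which can assemble alone. It had 1217, 1319 and 941 counts, or 114, 115 and 106 CPM, a mean of 112 ± 4.89 CPM (SD, n = 3). NEFM (ENSG00000104722.14; chromosome 8, 24913012 to 24919098, plus strand) encodes the medium subunit. Its level was 127, 130 and 107 CPM in the 3 replicates, a mean of 121 ± 12.9 CPM. Replicate 3 was the low library for NEFM, while the 3 values of NEFL lay within 1.09 times of each other. NEFH (ENSG00000100285.10; chromosome 22, 29480230 to 29491390, plus strand) encodes the heavy subunit, whose long phosphorylated tail projects from the filament. It had 98.8, 98.7 and 92.6 CPM, a mean of 96.7 ± 3.57 CPM.

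INA (ENSG00000148798.11; chromosome 10, 103277163 to 103290351, plus strand) had 131, 139 and 132 CPM, from 1397, 1583 and 1168 counts, a mean of 134 ± 4.24 CPM (SD, n = 3). Its values were the most even of the filament genes, with a coefficient of variation of 3.17%, near its counting error of 2.69%. With the GC trend described below removed, it was 4.02%. NEFH and NEFL were then more even, with 2.50% and 3.57%, and NEFM and PRPH less even. PRPH (ENSG00000135406.14; chromosome 12, 49293252 to 49298686, plus strand) had 49, 49 and 42 counts. These gave 4.58, 4.29 and 4.74 CPM, a mean of 4.54 ± 0.231 CPM. The counting error of PRPH was 14.6% per library, larger than its coefficient of variation of 5.08%, so the evenness of its 3 values is no measure of its true spread. PRPH lay above 16.3% of the 13920 genes, and the other 4 filament genes lay above 80.9 to 87.7% of them.

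Levels of different genes were compared per kilobase of the longest annotated transcript. INA was highest of the filament genes with 41.4 ± 1.31 CPM per kilobase (SD, n = 3), followed by NEFM with 30.2 ± 3.20, NEFL with 27.4 ± 1.20 and NEFH with 25.6 ± 0.943. PRPH had 1.40 ± 0.0711 CPM per kilobase. INA was 28.6, 32.4 and 27.9 times as high as PRPH per kilobase in replicates 1, 2 and 3. As a share of the filament total per length, INA held 32.9 ± 1.26%, NEFM 23.9 ± 1.48%, NEFL 21.8 ± 0.146%, NEFH 20.3 ± 0.334% and PRPH 1.11 ± 0.108%. These ratios depend on the length used. The ratio of NEFL to NEFH was 1.07, 1.08 and 1.06 in the 3 libraries, and 2.16, 2.19 and 2.15 per coding length. The ratio of NEFL to NEFM was 0.881, 0.873 and 0.982, and the counts of these genes in replicate 3 were 941 and 944. Per coding length it was 1.51, 1.49 and 1.68, on the other side of 1, because NEFL has a coding length of 1632 bases in a transcript of 4082 bases, against 2751 of 4020 bases for NEFM.

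The DNA before the start sites of INA and PRPH is shown because these genes had the widest ratio among the filaments. RefSeq promoter entries (GRCh38.p14) matched 5 of the 10 genes, INA, PRPH, MAP1B, TUBB3 and GAP43. Each window holds the 250 bases before the RefSeq start, 5′ to 3′ on the gene's strand. GENCODE 29 begins PRPH, MAP1B, TUBB3 and GAP43 further upstream. The windows of these genes therefore lie partly or wholly inside the gene as placed there. Motifs were searched on both strands: the TATA box TATAAA, the CCAAT box CCAAT, the GC box GGGCGG, the core of the antioxidant response element TGACNNNGC (the element bound by NRF2), and the left part of the element bound by the repressor REST, TTCAGCACC. Capitals mark a match to any of them, on either strand. The INA window is chr10:103276888-103277137 and the PRPH window chr12:49294897-49295146, both on the plus strand.
INA: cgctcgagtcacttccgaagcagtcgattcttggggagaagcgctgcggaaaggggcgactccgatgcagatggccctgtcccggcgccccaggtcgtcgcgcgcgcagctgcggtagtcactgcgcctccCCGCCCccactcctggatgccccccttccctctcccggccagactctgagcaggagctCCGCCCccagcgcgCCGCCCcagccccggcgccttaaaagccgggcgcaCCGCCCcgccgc
PRPH: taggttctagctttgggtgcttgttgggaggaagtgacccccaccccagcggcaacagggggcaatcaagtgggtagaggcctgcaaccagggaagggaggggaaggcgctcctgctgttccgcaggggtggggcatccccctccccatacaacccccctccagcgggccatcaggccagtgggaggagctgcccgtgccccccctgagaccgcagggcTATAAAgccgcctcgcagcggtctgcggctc
The INA window held 4 GC boxes, all on the minus strand, and no TATA box. The PRPH window held 1 TATA box, which begins 31 bases before the start, and no GC box. Of 35114 RefSeq windows of this length, 42.6% held a GC box and 10.7% a TATA box. These matches are a description of the letters and were not related to the levels by any test.

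MAP1B (ENSG00000131711.15; chromosome 5, 72107234 to 72209570, plus strand) had the most counts of the 10 genes. It encodes a large microtubule-associated protein made early in axon growth. Its 10962, 11065 and 8404 counts gave 1025, 968 and 949 CPM, a mean of 981 ± 39.5 CPM (SD, n = 3). It ranked 58 among the 13920 genes by CPM. Its transcript is long, 12036 bases, and per kilobase it had 81.5 ± 3.28 CPM, above 95.8% of genes with a known length. Its counting error was 0.993%, so its coefficient of variation of 4.03% was 4.06 times what counting alone gives. MAPT (ENSG00000186868.17; chromosome 17, 45894382 to 46028334, plus strand), which encodes tau, had 42.1, 40.2 and 38.4 CPM, a mean of 40.2 ± 1.84 CPM from 340 to 459 counts. The spread of MAPT, 4.58%, did not exceed its counting error of 4.90%. Per kilobase MAP1B was 13.8, 13.7 and 14.0 times as high as MAPT, and 7.59 to 7.78 times per coding length.

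Among 13 microtubule-associated proteins, each detected at 10 or more counts per library, the median was 66.2 ± 5.04 CPM. MAP1B, MAP4 and MAP1A had the highest CPM, with 387 ± 20.6 CPM for MAP4, a widely expressed member of the tau family, and 196 ± 14.3 CPM for MAP1A, the relative of MAP1B that prevails in mature neurons. The lowest was MAP7 with 7.40 ± 1.04 CPM. Per length, MAP1B held 25.2 ± 0.697% of the list and MAPT 1.82% (1.80 to 1.88% over the libraries). The plus-end binding protein gene MAPRE1 held 22.1 ± 1.61%. The order of MAP1B and MAPRE1 turned with coding lengths, to 17.6 ± 0.725% and 30.8 ± 1.77%. Per kilobase, MAPT was 0.351 to 0.387 times as high as MAP2, the dendritic relative of tau, and 0.580 to 0.639 times per coding length.

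The MAP1B window chr5:72107225-72107474 (GRCh38.p14, plus strand) is shown as that of the member with the most counts. It lies before the more upstream of its 2 RefSeq starts.
MAP1B: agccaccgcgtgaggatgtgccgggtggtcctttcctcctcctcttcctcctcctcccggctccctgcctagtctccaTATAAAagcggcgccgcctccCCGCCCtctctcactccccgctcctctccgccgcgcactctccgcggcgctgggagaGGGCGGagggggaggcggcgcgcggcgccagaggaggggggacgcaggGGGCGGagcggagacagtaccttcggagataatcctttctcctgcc
It held 3 GC boxes, and a TATA box that begins 172 bases before this start. Gene counts do not tell which start was used.

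TUBB3 (ENSG00000258947.8; chromosome 16, 89921392 to 89938761, plus strand) encodes class III beta-tubulin, a widely used marker of neurons. It had 230, 203 and 135 counts, or 21.5, 17.8 and 15.2 CPM, a mean of 18.2 ± 3.15 CPM (SD, n = 3). Replicate 1 was highest and replicate 3 lowest, and the highest value was 1.41 times the lowest. Its coefficient of variation of 17.3% was the largest of the 10 genes and 2.39 times its counting error of 7.27%. With the GC trend described below removed, it was 10.0%, below the 12.6% of PRPH. TUBB3 held 0.927 ± 0.138% of beta-tubulin transcripts per length. TUBB held 58.2 ± 0.910%, TUBB4B 24.9 ± 0.457% and TUBB2B 8.29 ± 0.288%. These 3 genes also had the highest CPM of the 9 beta-tubulins, 1671 ± 22.4, 502 ± 22.9 and 166 ± 10.3 CPM. The lowest was TUBB8 with 0.234 ± 0.0914 CPM, from 2, 2 and 3 counts. Beta-tubulin genes are close paralogs, and how reads that match several of them were counted is not stated.

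The level of TUBB3 is uncertain for another reason. In GENCODE 29 a protein-coding readthrough gene, AC092143.1 (ENSG00000198211.8), runs through TUBB3 on the same strand. It shares 1584 of the 4430 exonic bases of TUBB3 and 1293 of the 1350 bases of its longest coding sequence, or 95.8%. AC092143.1 had 0 counts in each control library. A counter that leaves out reads overlapping exons of more than 1 gene would assign such reads to neither. Whether the authors' counting did so is not stated, and its part in the level of TUBB3 was not tested. None of the other 9 members shared exonic bases with a gene on its own strand.

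Overlaps on the opposite strand were found for more of the members, from 56.2% of the exonic bases for PRPH to 0.503% for MAPT. The antisense gene AC125611.4 covered 56.2% of the exonic bases of PRPH and had 6, 13 and 7 counts. AF106564.1 covered 38.9% of those of NEFM and had 43, 61 and 41 counts. AC107373.2 covered 11.3% of NEFL and AC000035.1 covered 8.80% of NEFH, with at most 4 counts in any library. The library kit marks strand, per the labels' protocols, but whether the counting used it is not stated. Without it, reads in the shared bases cannot be told apart. The bases shared with no gene number 1908 of 4353 for PRPH and 2675 of 4381 for NEFM.

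The TUBB3 window before the more downstream of its 2 RefSeq starts, chr16:89923092-89923341 (GRCh38.p14, plus strand), is shown beside this overlap.
TUBB3: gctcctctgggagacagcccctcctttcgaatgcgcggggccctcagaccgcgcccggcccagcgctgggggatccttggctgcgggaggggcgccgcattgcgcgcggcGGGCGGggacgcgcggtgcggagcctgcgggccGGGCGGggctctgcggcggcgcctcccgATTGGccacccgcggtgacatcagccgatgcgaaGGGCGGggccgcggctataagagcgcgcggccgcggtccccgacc
It held 3 GC boxes and 1 CCAAT box on the minus strand, a motif found in 32.0% of all windows. Its GC content was 78.0%, against a median of 58.0% over all windows. The core of the antioxidant response element was found in 1 of the 7 windows of the 5 genes, the one before the other TUBB3 start, and in 10.9% of all windows. The REST motif was found in none of the 7 and in 0.288% of all windows.

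STMN2 (ENSG00000104435.14; chromosome 8, 79610814 to 79666175, plus strand), the neuronal stathmin, was the highest of the 10 genes per length. Its 5237, 5788 and 4902 counts gave 490, 507 and 554 CPM, a mean of 517 ± 33.1 CPM (SD, n = 3). Replicate 3 was the high library, in contrast to its place for NEFM and TUBB3. Per kilobase STMN2 had 232 ± 14.9 CPM, above 98.9% of genes with a known length. The ubiquitous stathmin STMN1 had 982 ± 23.0 CPM. As a share of the 4 stathmins per length, STMN1 held 51.1 ± 0.722%, STMN2 35.6 ± 1.68%, STMN3 11.5 ± 1.11% and STMN4 1.76 ± 0.0280%. Per coding length these shares were 61.0 ± 0.772%, 29.9 ± 1.43%, 8.04 ± 0.774% and 1.10 ± 0.0196%. The median of the list was 347 ± 9.66 CPM.

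**Figure D2:**
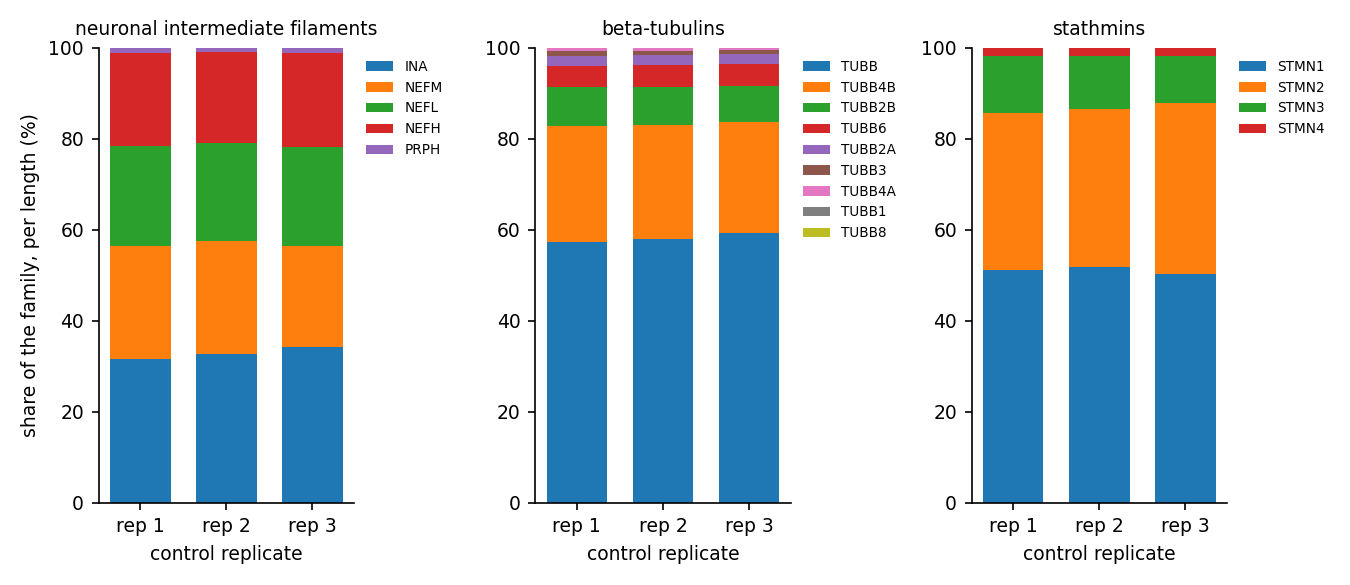
Share of each gene (percent of its family, per kilobase of the longest transcript) in control replicates 1, 2 and 3, for neuronal intermediate filaments, beta-tubulins and stathmins. INA leads the filaments with 32.9%, TUBB the beta-tubulins with 58.2% and STMN1 the stathmins with 51.1%, while TUBB3 is a thin band of 0.927%.

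GAP43 (ENSG00000172020.13; chromosome 3, 115623324 to 115721490, plus strand) had 1474, 1502 and 1231 counts, or 138, 131 and 139 CPM, a mean of 136 ± 4.07 CPM (SD, n = 3). Its coefficient of variation of 2.99% was the smallest of the 10 genes, near its counting error of 2.67%. With the GC trend described below removed, MAPT had the smallest, 1.58%, and GAP43 had 3.63%. Per kilobase it had 71.6 ± 2.14 CPM, and STMN2 was 3.04, 3.30 and 3.41 times as high, or 5.20, 5.64 and 5.82 times per coding length. Of 14 growth cone proteins, all reached 10 counts in every library, with a median of 218 ± 15.6 CPM. DPYSL3, a cytosolic protein of the collapsin response family, had 1749 ± 116 CPM, the MARCKS relative MARCKSL1 601 ± 40.2 CPM and the actin-binding drebrin gene DBN1 388 ± 43.1 CPM. The lowest was the adhesion molecule gene CNTN2 with 25.98 ± 4.72 CPM. BASP1, which like GAP43 is a membrane-attached growth cone protein, had 55.8 ± 2.41 CPM.

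The GAP43 window chr3:115623260-115623509 (GRCh38.p14, plus strand) is shown as the one of lowest GC content among the 7 windows.
GAP43: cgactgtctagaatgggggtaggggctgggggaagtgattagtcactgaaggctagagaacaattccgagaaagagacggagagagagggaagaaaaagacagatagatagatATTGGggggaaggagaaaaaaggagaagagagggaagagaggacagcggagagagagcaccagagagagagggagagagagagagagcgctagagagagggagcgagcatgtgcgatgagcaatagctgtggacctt
Its GC content was 51.6%, against a median of 58.0% over all RefSeq windows. The other windows of the members lay above that median, at 60.4 to 78.0%, most of them further from it than GAP43. The GAP43 window held 1 CCAAT box on the minus strand and no GC box.

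Ordered by CPM per kilobase of the longest transcript, the genes ran from STMN2 through MAP1B, GAP43, INA, NEFM, NEFL, NEFH, TUBB3 and MAPT to PRPH. For each of the 9 pairs of neighbours, all 3 libraries kept the order and the mean log2 ratio exceeded its SD. The order was taken from the means of these same libraries, so their keeping it is partly built in. The SD between libraries does not cover the choice of length. By coding length the order differed, and its 9 pairs met the criterion as well. The step from NEFM to NEFL did not meet the criterion in some settings. Its SD exceeded its mean without replicate 1 (0.11 ± 0.12) and without replicate 2 (0.105 ± 0.111). With the length of all annotated exons, or of exons not shared on the same strand, it was 0.10 ± 0.09 and 2 of the 3 libraries kept the order. With 3 libraries a sign-flip permutation test cannot give a p under 0.25, so none was run. The narrowest steps were NEFL over NEFH, 0.10 ± 0.01 on the log2 scale, NEFM over NEFL, 0.14 ± 0.09, and MAP1B over GAP43, 0.19 ± 0.07. With the length of all annotated exons, or of exons not shared on the same strand, NEFL over NEFH was 0.0147 ± 0.0145. Counting errors were 2.94% for NEFL and 3.16% for NEFH, so the small SD of this step is no measure of its true spread. With coding lengths 4 of the 10 genes kept their place. GAP43 then stood above MAP1B, NEFL above NEFM, and MAPT above TUBB3, while STMN2 stayed first and PRPH last.

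**Figure D3:**
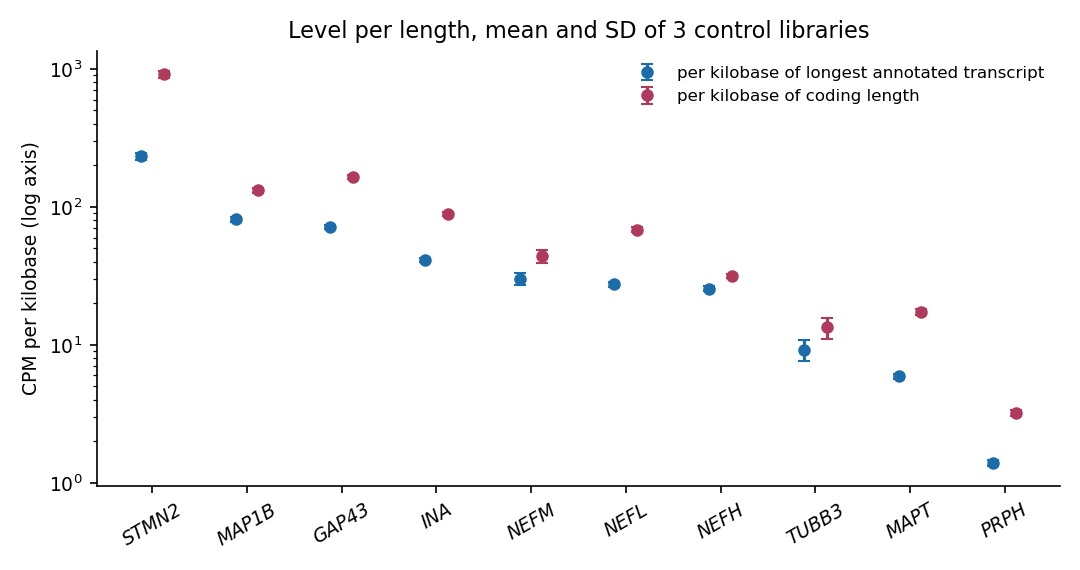
CPM per kilobase (log axis) of the 10 genes, mean and SD of 3 control libraries, with the longest annotated transcript or the coding sequence as length. STMN2 has 232 and 916 CPM per kilobase, PRPH 1.40 and 3.21, and the pairs MAP1B and GAP43, NEFM and NEFL, and TUBB3 and MAPT change places between the measures.

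Replicate 3 departs from replicates 1 and 2 in these libraries along the GC content of the transcripts. The 10 genes were placed on that trend by the log2 difference of replicate 3 from the mean of the other replicates. Replicate 3 was lower than both others for 6 of the 10 genes (41.8% of all 13920 genes) and higher than both for 3 (38.6% of all). The median difference was -0.08 over the 10 genes and -0.01 over all genes. STMN2, with 42.9% GC, had the highest difference, 0.15. TUBB3, with 61.2% GC, had the lowest, -0.36, followed by NEFM with -0.27 at 54.0% GC. Over the 10 genes the rank correlation of the difference with GC was -0.37, against -0.73 over 10290 genes. Both describe genes that share the same 3 libraries. PRPH, with 61.6% GC, went the other way with 0.10, on 42 to 49 counts.

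With the GC trend removed, the difference was 0.07 for STMN2, -0.16 for NEFM and -0.15 for TUBB3, and the median over the 10 genes was 0.04. The median absolute difference of replicate 3 went from 0.10 to 0.08 over the 10 genes and from 0.16 to 0.11 over all genes. The trend was fitted to these same libraries. The SD between libraries fell for some of the 10 genes and rose for INA, PRPH, MAP1B and GAP43. How often it fell over all genes was not counted, so nothing particular to the 10 genes follows. For STMN2 it went from 33.1 to 14.1 CPM, and for TUBB3 from 3.15 to 1.81 CPM. For MAP1B, with 44.9% GC, it went from 39.5 to 62.5 CPM, with values of 1048, 967 and 926 CPM after removal. Mitochondrially encoded genes took 6.25% of the counts in replicate 3 and 4.11% and 3.83% in the others. With those genes left out of the library totals, the median difference over the 10 genes was still -0.08. The TMM factors were computed anew in this setting, so the value could hardly change. What part the mitochondrial share has in the deviation was not tested.

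**Figure D4:**
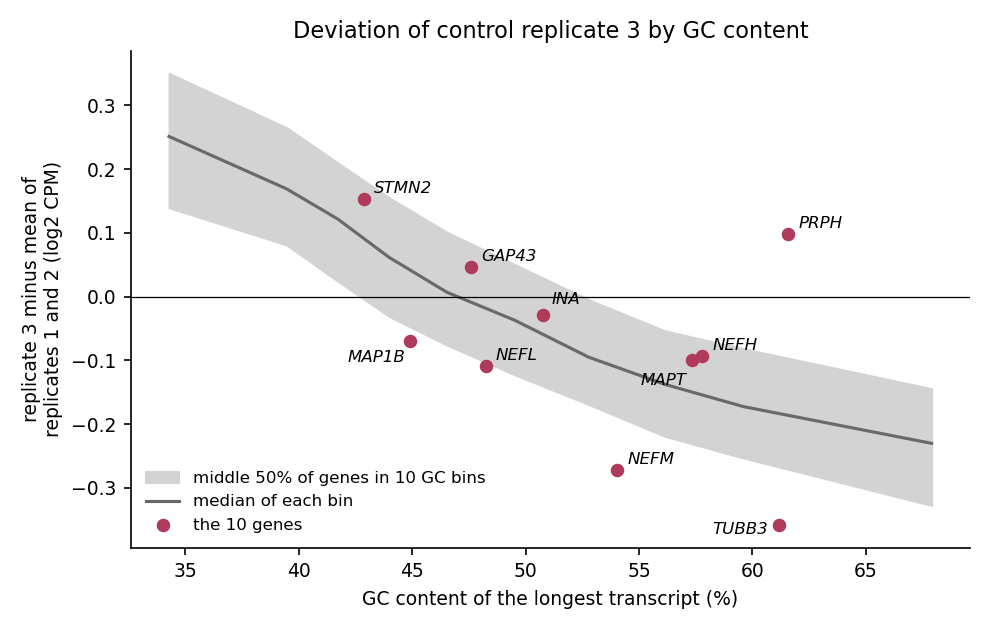
Log2 CPM of control replicate 3 minus the mean of replicates 1 and 2 against the GC content of the longest transcript (percent), for the 10 genes (points) and for 10290 genes in 10 GC bins (line, median; band, middle 50% of genes). STMN2 at 0.15 and GAP43 at 0.05 lie within the band, TUBB3 at -0.36, NEFM at -0.27 and MAP1B at -0.07 lie below it, and PRPH at 0.10 lies above it.

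Other intermediate filaments set the scale for the neuronal ones. Of 10 such genes, 6 reached 10 counts in every library, and the list median was 124 ± 9.55 CPM over all 10 and 258 CPM over those 6. The highest by CPM was NES, encoding the nestin of neural precursors, with 436 ± 36.1 CPM. The lamin gene LMNA followed with 390 ± 32.2 CPM, and VIM, encoding vimentin, with 285 ± 15.7 CPM. Per kilobase NES had 78.4 ± 6.49 CPM, below 122 ± 10.1 for LMNA and 107 ± 5.88 for VIM. The lowest by CPM was DES, the muscle filament gene, with 1, 1 and 0 counts. GFAP, the filament gene of astrocytes, had 1, 3 and 1 counts. Of 6 alpha-tubulins, 4 reached the minimum, and the median was 5.67 ± 0.757 CPM over all 6 and 171 CPM over those 4. TUBA1A, the isotype prevalent in developing neurons, had 880 ± 15.2 CPM, TUBA1B 335 ± 34.8 CPM and TUBA1C 8.07 ± 1.38 CPM. TUBA3C had 0 counts in each library.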

How the data were processed

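The authors deposited raw counts per Ensembl gene ID, whole numbers without normalization. The submitters' processing notes list fastp 0.21.1, STAR 2.7.7a, featureCounts and GRCh38. The annotation release, strand setting and treatment of shared reads are not given in the sources used here. Columns were matched to samples by number, and 3 count columns matched none and were not used. One entry without values and 2 lines naming no gene were left out. Symbols matched 60436 of 60709 genes, and the 273 without one held 0.029% of counts.

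Counts were scaled to CPM with TMM factors (edgeR 4.0.16, R 4.3.3). Lengths, GC content and exon overlaps came from GENCODE 29, in which 58463 of the genes were found, 38211 with the same version. A GC trend was the median deviation from the gene mean in 50 equal bins of 10290 nuclear genes (mean count 100 or more), interpolated, and was tested on simulated data. Other computations used scipy 1.17.1, pandas 2.3.3 and numpy 2.4.6 in Python 3.11.15. Counting error is 1 over the square root of the mean count, and covers sampling of reads only. A count of 0 allows up to 3 counts.

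No groups were compared, since only control columns were matched. Members and lists were chosen with earlier results of these data known. All 10 members are named, and of each related list the 3 genes of highest and the 1 of lowest mean CPM. Markers and other genes named from the lists (BASP1, MAP2, MAPRE1, STMN4, GFAP, HAND2, FN1 and others) were chosen after their values were seen. Member levels, the shares of TUBB3 and of the filament genes, and the deviation of replicate 3 were also computed with RLE factors, with unscaled library totals, without mitochondrial genes, after removal of the GC trend and with libraries left out. The order was recomputed with other lengths and without each library, the shares and ratios with coding length, and list medians with a count minimum. For the stathmin shares, coding length was the only alternative.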

Additional observations from a re-analysis of the deposited data

How the results depend on the processing

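No paired analysis was possible because a single group had matching columns. RLE size factors, library size alone, removal of the GC trend and leaving out each library in turn moved none of the 10 mean levels by as much as 1 SD between replicates. Leaving out 1 of 3 libraries cannot do so. RLE factors, unscaled totals and the GC trend rescale the 3 libraries against each other, so they could hardly move a mean over all 3. The unchanged means are therefore no measure of robustness. With mitochondrial genes left out, 6 of the 10 moved, since the smaller total raised every gene by 4.97%, and the summed level became 2267 CPM. With coding length, a setting chosen after the data were seen, the share of TUBB3 became 0.713%, and filament shares became 28.97% for NEFL, 18.6% for NEFM, 13.4% for NEFH, 37.7% for INA and 1.36% for PRPH. With members under 10 counts in any library dropped, list medians became 258 CPM for other intermediate filaments, 103 CPM for beta-tubulins and 171 CPM for alpha-tubulins, which follows from removing the lowest members. The median deviation of replicate 3 over the 10 genes, -0.08, became 0.036 with the GC trend removed. Of the 9 steps in the order per kilobase, 8 held without replicate 1, without replicate 2, with all annotated exons as length and with exons not shared on the same strand. The step lost was NEFM over NEFL each time. With either exon length, NEFL over NEFH was counted as held at 0.0147 ± 0.0145 on the log2 scale, a spread under the counting error. Depth limits PRPH most, with 42 to 49 counts per library.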

Other observations

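Genes known to act on the messages or proteins of the cytoskeleton genes were all measured above 10 counts in every library. Of 7 regulators of transcription, splicing or RNA stability, the median was 189 ± 18.9 CPM (SD, n = 3). PTBP1, a splicing repressor that falls during neuronal differentiation, had 511 ± 36.6 CPM. TARDBP, encoding TDP-43, which prevents a truncating splice of the STMN2 message, had 240 ± 5.42 CPM. ELAVL4, a neuronal RNA-binding protein that stabilises the GAP43 message, had 208 ± 9.92 CPM. The lowest was PTBP2, the neuronal relative of PTBP1, with 17.6 ± 2.17 CPM. REST, a repressor of neuronal genes outside neurons, had 57.7 ± 2.86 CPM.

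Of 9 genes for kinases that phosphorylate neurofilaments or microtubule-associated proteins, and their activators, the median was 67.0 ± 0.925 CPM. GSK3B had 154 ± 6.37 CPM, MARK3 146 ± 6.30 CPM and GSK3A 104 ± 8.37 CPM. The lowest was CDK5R1, an activator of CDK5, with 32.9 ± 4.59 CPM, beside 64.6 ± 3.43 CPM for CDK5 itself. No comparison between conditions was made for any of these genes.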
